A study of Rattus norvegicus with 54 samples.

Results

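The infarct-zone transcriptome of rats treated with a cell sheet after myocardial infarction (MI) was compared with that of sham-operated rats. The 12 libraries of this comparison, 6 from cell sheet-treated and 6 from sham hearts, were taken by their labels for treatment and zone out of the 54 libraries of the study. All animals were female athymic F344/NJcl-rnu/rnu rats operated at 8 weeks of age, and the tissue was collected 1 week after surgery. In the cell sheet group the left anterior descending coronary artery was permanently ligated and a sheet of human cells in 2 layers, endothelial progenitor cells (EPCs) from blood and smooth muscle cells (SMCs) derived from mesenchymal stem cells, was laid on the epicardium of the ischemic wall. Sham hearts received neither ligation nor sheet, and their infarct-zone library comes from the matching anterior wall of the left ventricle. A further 6 infarct-zone libraries of untreated MI hearts, with ligation and no sheet, were used where a value is set beside the cell sheet effect. Sham and cell sheet animals therefore differed in the ligation and in the sheet together, and these cannot be told apart in this comparison alone. Athymic rats lack mature T cells of thymic origin, which limits the model for the adaptive immune response, and human transcripts of the graft were not analysed here. Libraries within a group carry a label for technical replicates, whereas the methods of the study describe 6 hearts per group. If the libraries were not from separate animals, the p-values would measure technical spread only.

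A week after coronary occlusion, dead myocardium is being cleared by phagocytes and replaced by granulation tissue, in which fibroblasts turn into contractile myofibroblasts and lay down a collagen scar. The working cardiomyocyte of the ventricle is rich in sarcomere proteins and mitochondria and burns mainly fatty acids. New vessels need endothelial cells and the mural cells, pericytes and SMCs, that wrap them.

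The libraries held between 12699204 and 17233325 counts on genes in the sham group and between 16542441 and 23397754 in the cell sheet group, so that counting error was small except for low genes. Levels are given as CPM, counts relative to the size of the library, scaled by the trimmed mean of M values (TMM), and a fold change is the log2 difference, cell sheet minus sham. The marker genes of cardiomyocytes were high in all 6 sham libraries, in which the 20 sarcomere genes took 3.3% to 8.34% of the counts. Sham replicate 5 stood apart from the other sham libraries. The T-cell receptor subunit gene Cd3e was at 106 CPM in it and at 0 to 0.538 CPM in the other 5 sham libraries. The mean log2 level of the 16 T and NK cell genes was 5.08 in sham replicate 5 against 0.89 to 1.55 in the other sham libraries, and that of the 22 macrophage genes 7.03 against 4.08 to 4.79. Its sarcomere genes took 3.3% of its counts, against 6.88% to 8.34% in the others. The main infarct-zone results are therefore given with and without this library. Among the cell sheet libraries, replicates 2 and 6 held skeletal muscle genes, replicate 6 held lung genes, and replicates 1 to 4 held adipocyte genes, with the values given with the marker lists of other tissues.

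In the whole transcriptome, 9078 of 15687 tested genes, 57.9%, differed between cell sheet and sham infarct zones at an adjusted p under 0.05. Of these, 4492 (28.6% of the tested genes) were higher and 4586 (29.2%) lower in the cell sheet group. These shares are the background for the counts of every gene list below. The called genes included 2089 that were more than 2-fold higher and 2449 that were more than 2-fold lower. Changes over 8-fold were found for 284 genes upward and 111 downward. The 6 and 6 libraries did not overlap for 3282 tested genes, 20.9%, of which 1442, 9.19%, were lower in the cell sheet group. Without sham replicate 5, 11159 of 15938 tested genes, 70.0%, were called, 5807 of them (36.4%) higher and 5352 (33.6%) lower. Of the genes tested in both fits, 8949 were called in the same direction with and without it and none in opposite directions, while 2051 were called only without it and 129 only with it. The balance of directions depended on the scaling. With plain library sizes in place of TMM factors, 6238 genes were higher and 3177 lower, and the median fold change of all genes moved from 0.01 to 0.28. On the 6 cell sheet and the 5 other sham libraries, 49.8% of tested genes did not overlap. All changes below are relative to the TMM scale, and with library sizes the calls of Ryr2, Timp3, Ackr3, Smtn, Des and Lipe below were lost while Cxcl12 was called higher (0.53).

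**Figure D1:**
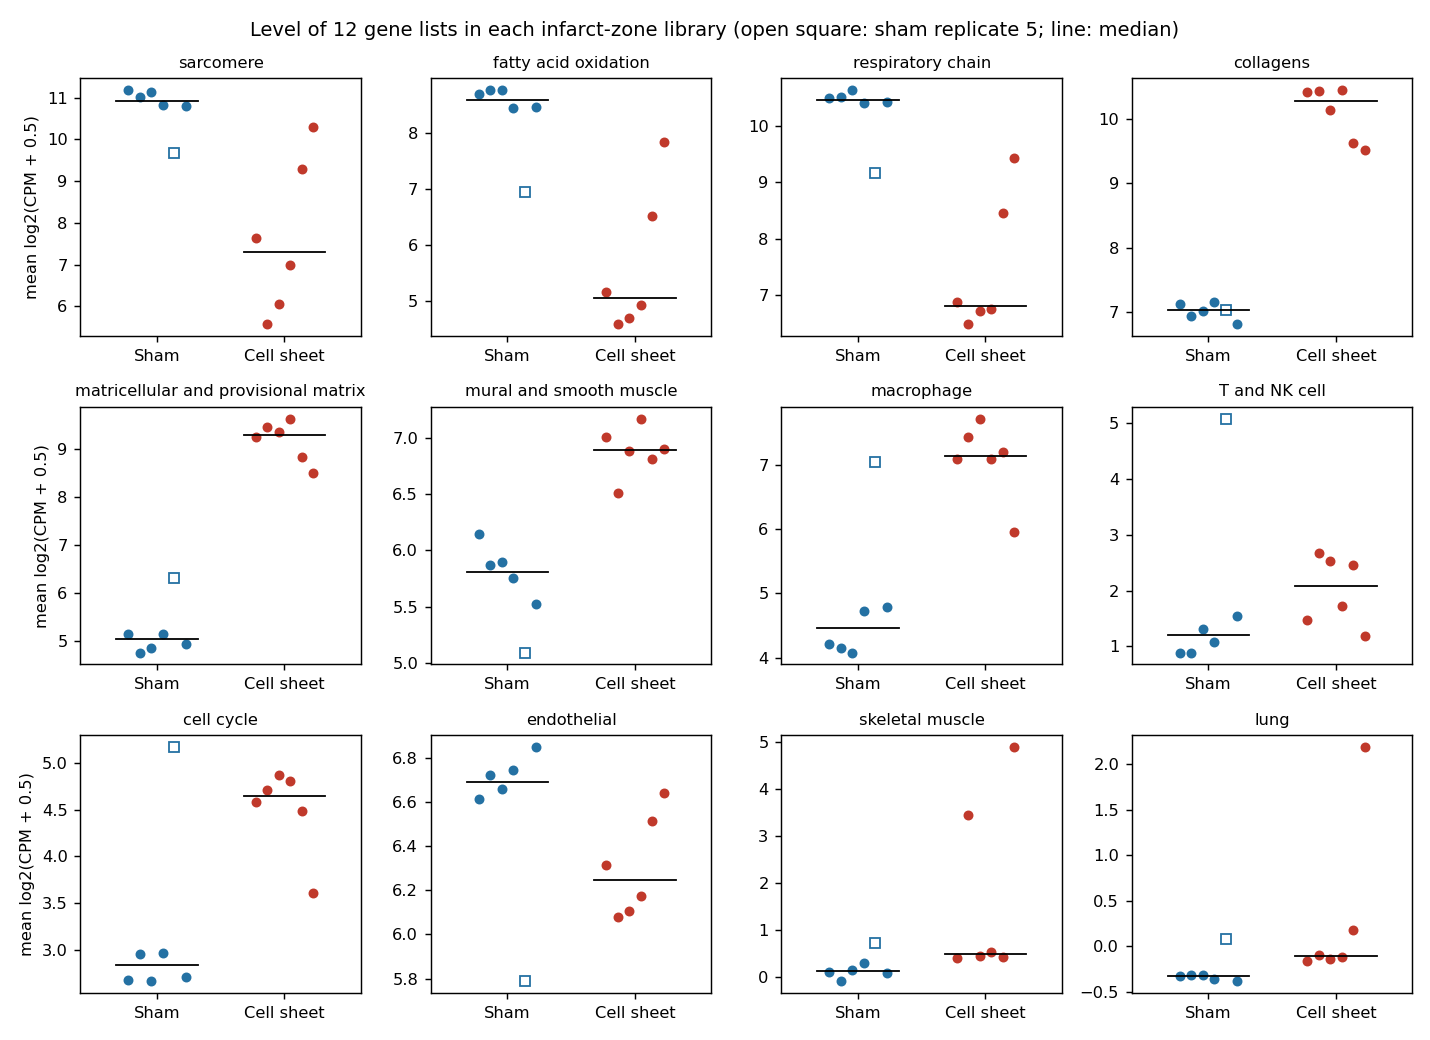
Mean log2(CPM + 0.5) over the genes of 12 lists (vertical axes) in each sham (blue) and cell sheet (red) infarct-zone library; an open square marks sham replicate 5 and a line the median of 6 libraries. The sarcomere, fatty acid oxidation and respiratory chain lists were low in cell sheet replicates 1 to 4 and higher in replicates 5 and 6, the collagen and matricellular lists did not overlap between groups, and sham replicate 5 was the highest library for T and NK cell and cell cycle genes.

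Cardiomyocyte genes were lower in the cell sheet infarct zone. Of the 20 sarcomere genes tested, 16 fell and none rose, with a median fold change of -2.37 beside 0.01 over all genes. Tnni3, the cardiac inhibitory troponin, had a lowest, median and highest level of 81.5, 243 and 4170 CPM in the cell sheet group and 4950, 13200 and 14000 CPM in sham. The groups did not overlap, the highest cell sheet library being replicate 6 and the lowest sham library replicate 5. The fold change was -3.42 (SE 0.94, adjusted p = 0.00894). Myl2, the ventricular regulatory light chain, ranged from 142 to 5030 CPM around a median of 579 in the cell sheet group and from 3660 to 10700 around 8540 in sham, a fold change of -2.41 (SE 0.79, adjusted p = 0.0206) with overlap at cell sheet replicate 6 and sham replicate 5. Myh6, the alpha myosin heavy chain and main motor of the adult rat ventricle, spanned 2.91, 189 and 5670 CPM in the cell sheet group and 1970, 8180 and 10400 CPM in sham. It did not pass the test, with a fold change of -2.54 (SE 1.27, adjusted p = 0.102) and passed in 1 of the 12 fits that each left out a library, that without cell sheet replicate 6. Its lowest value was that of cell sheet replicate 3 and its highest cell sheet value that of replicate 6, above sham replicate 5. The beta heavy chain Myh7 had a fold change of -0.13 (adjusted p = 0.863), and Nebl and the atrial light chain Myl7 also did not pass. Without cell sheet replicate 6 the fold changes of Tnni3 and Myl2 were -4.60 and -3.26. Without sham replicate 5, 18 of 20 fell, and over the fits without each library in turn the number ranged from 12 (without cell sheet replicate 1) to 18.

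The 6 treated hearts were unlike each other in this respect. The sarcomere genes took 0.805%, 0.227%, 0.316%, 0.491%, 2.31% and 4.93% of the counts in cell sheet replicates 1 to 6. Replicates 5 and 6 kept the highest shares, and replicate 6 lay above sham replicate 5. The 6 untreated MI libraries spanned 0.684% to 5.32%. The median SD over genes of the log2 level was 0.30 among cell sheet libraries, 0.33 among the 6 sham libraries and 0.18 without sham replicate 5. In bulk tissue a smaller number of cardiomyocytes and less RNA per cardiomyocyte cannot be told apart.

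**Figure D2:**
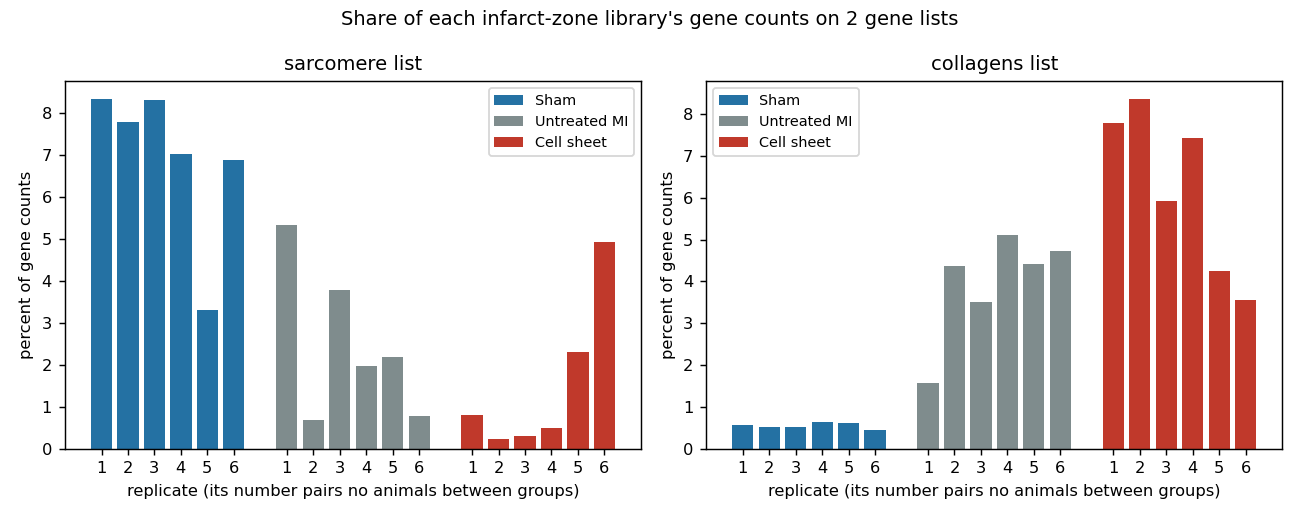
Percent of each infarct-zone library's gene counts (vertical axes) that fell on the 20 sarcomere genes (left) and the 18 collagen genes (right), by replicate number within sham (blue), untreated MI (grey) and cell sheet (red) hearts. Sarcomere shares were below 1% in cell sheet replicates 1 to 4, and all 6 cell sheet libraries had collagen shares above every sham library.

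Of 20 genes of excitation and calcium handling tested, 18 fell and none rose, with a median of -2.13. Trdn, the junctional protein triadin, had the largest fall of this list. Its levels ran from 10.8 to 224 CPM (median 19.2) in the cell sheet group and from 214 to 572 CPM (median 504) in sham, overlapping only at cell sheet replicate 6 and sham replicate 5, with a fold change of -2.93 (SE 0.76, adjusted p = 0.0068). Atp2a2, the calcium pump of the sarcoplasmic reticulum, had a fold change of -2.26 (SE 0.76, adjusted p = 0.0232). The ryanodine receptor Ryr2 (-2.13, adjusted p = 0.0444) passed narrowly and was called in 2 of the 12 fits without a library, those without cell sheet replicate 6 or sham replicate 5. The call of Atp2a2 was lost without cell sheet replicate 1. Over those fits the count for the list ranged from 8 (without cell sheet replicate 1) to 19, and no member was called higher in any of them. Without cell sheet replicate 6 the fold changes of Trdn, Atp2a2 and Ryr2 were -4.05, -3.32 and -3.22. The pacemaker channel Hcn4 and Kcnip2 did not pass.

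Mitochondrial energy genes fell as well. All 21 tested respiratory chain genes were lower (median -2.33), and all 21 were called in each of the 12 fits without a library. Cox8b, the heart isoform of a cytochrome c oxidase subunit, had levels of 8.01, 18.8 and 598 CPM (lowest, median, highest) in the cell sheet group and 755, 2040 and 2560 CPM in sham. The groups did not overlap, and its fold change of -3.71 (SE 1.07, adjusted p = 0.0114) was among the 10 largest falls of all genes. Ndufs1 of complex I (-2.27, SE 0.64), Sdhb of complex II (-2.42, SE 0.47) and Atp5f1a of the ATP synthase (-2.17, SE 0.56) had smaller falls with adjusted p of 0.00995, 0.0013 and 0.00624. Of the 20 fatty acid oxidation genes, 19 fell (median -2.27), led by Fabp3, the heart fatty acid-binding protein (-3.22, SE 1.04, adjusted p = 0.0201). Acadm, the medium-chain acyl-CoA dehydrogenase, had a fold change of -2.26 (adjusted p = 0.0107) and Ppargc1a, a coactivator of mitochondrial biogenesis, of -2.63 (adjusted p = 0.0196). Cpt1b, the muscle carnitine palmitoyltransferase that admits fatty acids to mitochondria, lay just outside the threshold with a fold change of -2.17 (adjusted p = 0.0501) and passed without sham replicate 5 (-2.35, adjusted p = 0.033). All 10 energy shuttle genes fell (median -1.75), among them Ckmt2, the mitochondrial creatine kinase (-3.35, adjusted p = 0.0193), Ckm, the muscle creatine kinase (-2.77, adjusted p = 0.0325), and Mb, myoglobin, which dropped from a median of 20300 CPM in sham to 503 CPM (-2.95, adjusted p = 0.0208). Ckm was called in 5 of the 12 fits without a library. Without cell sheet replicate 6 the falls were larger, at -5.07 for Cox8b, -3.15 for Ndufs1, -2.87 for Atp5f1a, -4.74 for Fabp3, -3.17 for Acadm, -3.85 for Ppargc1a, -4.84 for Ckmt2, -4.18 for Ckm and -4.13 for Mb.

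The 17 glycolysis and hypoxia genes went both ways, with 3 higher, 9 lower and a median of -1.07. The largest fall was in the muscle enolase Eno3 (-2.69, SE 0.73, adjusted p = 0.0084), whereas the ubiquitous enolase Eno1 was higher (0.45, SE 0.18, adjusted p = 0.0431). The monocarboxylate exporter Slc16a3 (2.17, adjusted p = 0.0146) and the glucose transporter Slc2a1 (1.28, adjusted p = 0.0235) also rose, while Hk2 (0.02) and Pkm (-0.24) did not pass. Without cell sheet replicate 3 none of the list was called higher, 1 was without cell sheet replicate 2 or sham replicate 2, 3 or 6, and 5 were without sham replicate 5. Slc16a3 had a fold change of 3.21 without sham replicate 5 and Eno3 of -3.70 without cell sheet replicate 6. Slc2a1 was called in 7 and Eno1 in 4 of the 12 fits. Genes of wall stress and the fetal program were likewise divided, 2 higher and 4 lower of 11. The background for both lists, over all tested genes, was 28.6% higher and 29.2% lower. Nppa, the atrial natriuretic peptide, was at 166, 1230 and 3810 CPM in the cell sheet group and 483, 1070 and 3650 CPM in sham (fold change 0.21, adjusted p = 0.8), its highest sham value being replicate 5. Its relative Nppb fell (-1.46, SE 0.49, adjusted p = 0.0236), a call that was lost without cell sheet replicate 4, and so did the stretch-responsive Ankrd1, whose groups did not overlap (-1.45, SE 0.45, adjusted p = 0.0171). Rises in this list were those of Ccn2, a growth factor target and matricellular protein (2.92, SE 0.41, adjusted p = 2.21e-04), and of the transcription factor Runx1 (2.56, SE 0.51, adjusted p = 0.00146). Runx1 had a fold change of 3.34 without sham replicate 5. Leaving out cell sheet replicate 4 reduced the called genes of this list from 6 to 3.

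Scar matrix genes were higher in every treated heart. Of the 18 collagen genes, 17 rose, none fell and all 17 risers had no overlap between groups, against 11.7% of all tested genes that were higher without overlap. The median fold change was 3.13. Col1a1, the main chain of fibrillar collagen I, had a lowest, median and highest level of 7710, 15400 and 21000 CPM in the cell sheet group and of 479, 629 and 747 CPM in sham. Every cell sheet library was thus at least 10 times above every sham library, and the fold change was 4.50 (SE 0.36, adjusted p = 8.20e-06). Col3a1, the fibrillar collagen of early scar, rose from a sham median of 1800 to 18800 CPM (3.32, SE 0.31), and the short-chain Col8a1 from 21.3 to 266 CPM (3.52, SE 0.33). The steepest rise of the list was in Col11a1, a fibril-nucleating chain, at 64.3 to 251 CPM in the cell sheet group against 0 to 1.43 CPM in sham (8.48, SE 0.70, adjusted p = 9.51e-06). Without sham replicate 5 it was 9.32. The collagen VI chains Col6a2 and Col6a3 rose by 2.44 and 3.00. Col15a1, a basement membrane collagen, did not pass (0.33, adjusted p = 0.158). Collagen genes took 3.55% to 8.37% of the counts in the cell sheet libraries, against 0.447% to 0.636% in the sham libraries. The lowest cell sheet shares were those of replicates 5 and 6, the libraries with the highest sarcomere shares.

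The enzymes that make and cross-link collagen rose with it. All 15 tested were higher (median 2.00), and 13 of them had no overlap. P4ha3, a prolyl hydroxylase subunit, led the list with 19.3 to 66.9 CPM against 0.943 to 2.6 CPM (4.93, SE 0.41, adjusted p = 9.94e-06), followed by Lox, the cross-linking lysyl oxidase, with 228 to 745 against 21.2 to 45.7 CPM (4.30, SE 0.34, adjusted p = 7.51e-06). The collagen chaperone Serpinh1 had a smaller rise (1.85, SE 0.18) that was separated in all 12 libraries.

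Of the 19 matricellular and provisional matrix genes, 18 rose, each without overlap, and the median of the list was the highest of all lists (3.95). Postn, periostin of activated fibroblasts, was at 2180, 3300 and 5790 CPM (lowest, median, highest) in the cell sheet group and at 23.2, 29.6 and 343 CPM in sham. The highest sham value was that of replicate 5, and the fold change of 5.48 (SE 0.79, adjusted p = 2.31e-04) became 6.71 without it. The same library held the highest sham levels of Tnc, tenascin C of healing wounds, at 140 CPM against 2.15 to 4.24 CPM in the other sham libraries. Tnc rose by 4.67 (SE 1.17, adjusted p = 0.00551) with all libraries and by 7.52 without sham replicate 5. Fn1, fibronectin, rose by 4.12 (SE 0.35, adjusted p = 1.14e-05). Spp1, osteopontin of macrophages and fibroblasts, had the largest rise of the list (7.16, SE 1.21, adjusted p = 5.96e-04), with 148 to 2370 CPM in the cell sheet group. Spp1 had a fold change of 8.98 without sham replicate 5. The small proteoglycan gene Dcn was the member that did not pass (0.42, adjusted p = 0.0513).

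Proteases and their inhibitors did not move as a block. Of 15 tested, 12 rose and 2 fell. Adam12, a membrane protease of regenerating mesenchyme, rose from at most 3.27 CPM in sham to between 75.1 and 315 CPM (7.30, SE 0.57, adjusted p = 7.28e-06). The membrane collagenase Mmp14 (3.09, SE 0.25) and the gelatinase Mmp2 (2.22, SE 0.18) were also separated in all libraries. The tissue inhibitors split: Timp1 rose (2.52, SE 0.59, adjusted p = 0.0039), while Timp3 (-0.58, SE 0.16, adjusted p = 0.00807) and the cardiac Timp4 (-2.27, SE 0.49, adjusted p = 0.0025) fell. Timp1 had a fold change of 3.59 without sham replicate 5. Of 9 genes that the study itself names, Ndnf, Adam12, Notch3, Cxcl12 and 5 collagens, 8 rose and Cxcl12 did not pass. The study named them from cell sheet against untreated MI in the infarct and border zones, and Notch3 and Cxcl12 particularly for the border region. The count here is against sham in the infarct zone, which is another contrast. It shares the cell sheet libraries with that choice, so it is not independent evidence. Against untreated MI in the infarct zone 0 of the 9 were called.

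The 10 largest rises among genes without overlap were of genes at low levels in sham hearts, and Tnn, Adamts16, Col11a1 and Acan among them are matrix genes. Tnn, tenascin N, had the largest fold change (10.19, SE 0.96), with 46, 227 and 685 CPM in the cell sheet group and 19 counts in all 6 sham libraries together. Adamts16, a secreted metalloprotease, had 3844 counts over the 6 cell sheet libraries and 2 over the 6 sham libraries, a pooled ratio of 1250 with a 95% counting interval of 346 to 10300. Lrrc15, a surface protein of myofibroblasts, had 5152 and 3 counts, a ratio of 1120 (382 to 5420). These intervals cover the counting error of the sham counts only, so that the sizes of the largest ratios are poorly fixed. That the groups did not overlap was a condition for choosing these genes and is not a result about them. The others were Col11a1, described above, the cartilage proteoglycan Acan (7.95), the secreted C1qtnf3 (7.34), the neutrophil-attracting chemokine Cxcl6 (8.37), the lectin-like Clec2dl1 (8.59), the long noncoding RNA LOC120097004 (8.82) and Ca3, a carbonic anhydrase of fat and slow muscle (8.15). Over the fits without each library in turn, the fold change ranged from 9.61 to 11.35 for Tnn, 8.97 to 12.49 for Lrrc15, 7.62 to 9.30 for Acan, 7.13 to 9.39 for Cxcl6, 7.75 to 9.50 for Clec2dl1, 8.35 to 10.29 for LOC120097004 and 7.98 to 8.75 for Ca3. Ca3 was at 34.4 to 146 CPM in the 6 cell sheet libraries and at 0.157 to 0.986 CPM in sham. Cell sheet replicates 2 and 6 held skeletal muscle genes and replicates 1 to 4 adipocyte genes. The source of the Ca3 rise was not tested.

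The transforming growth factor beta (TGF-beta) and activin system rose moderately, 14 of 15 tested genes being higher and none lower (median 1.42). Among the ligands, Tgfb2 rose by 1.42 (SE 0.23, adjusted p = 4.38e-04) and Inhba, the activin A subunit, by 1.80 (SE 0.29, adjusted p = 4.46e-04), both without overlap. Tgfb1 rose by 0.97 (SE 0.31, adjusted p = 0.0176) with sham replicate 5 inside the cell sheet range, and was not called without cell sheet replicate 3. The largest rise was in Ltbp2, a latent TGF-beta-binding protein of elastic fibers (4.94, SE 0.90, adjusted p = 9.25e-04). Its sham level was 91.8 CPM in replicate 5 and 4.39 to 8.09 CPM in the others, and the fold change was 6.54 without that library. Ltbp4 did not pass (-0.57, adjusted p = 0.123).

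Genes of fibroblasts and myofibroblasts followed the matrix, with 11 of 15 higher and 1 lower (median 2.39). Acta2, smooth muscle alpha-actin and the hallmark of myofibroblasts, was at 199, 449 and 856 CPM in the cell sheet group and 21.4, 35.6 and 43.7 CPM in sham, with no overlap (3.90, SE 0.37, adjusted p = 2.11e-05). Fap, the fibroblast activation protein, rose from 15.2 to 67.6 CPM in the median (2.39, SE 0.22). The pan-fibroblast receptor Pdgfra rose less (0.78, SE 0.13, adjusted p = 4.75e-04), also without overlap. The quiescent-fibroblast transcription factor Tcf21 (-0.19, adjusted p = 0.46) and the collagen receptor Ddr2 (0.20, adjusted p = 0.295) did not pass, and Scx, a tendon and fibroblast transcription factor, fell (-1.16, SE 0.31, adjusted p = 0.00736).

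Of 15 mural and smooth muscle genes, 8 rose without overlap and 3 fell. Of all tested genes 28.6% were higher, 11.7% were higher without overlap and 29.2% were lower. The share that fell was thus no larger than the background. Myh11, the smooth muscle myosin heavy chain, was at 111, 149 and 216 CPM in the cell sheet group and 17.7, 30.5 and 44.4 CPM in sham. All 6 cell sheet libraries lay above all 6 sham libraries, with a fold change of 2.33 (SE 0.26, adjusted p = 5.32e-05). Notch3, the Notch receptor of mural cells, rose by 1.84 (SE 0.23, adjusted p = 1.03e-04) and Pdgfrb, the pericyte receptor, by 1.91 (SE 0.18, adjusted p = 1.81e-05). Cnn1, calponin of contractile cells, had the largest rise (5.45, SE 0.81, adjusted p = 2.79e-04). Without sham replicate 1 it was 6.83. The gene stands, with Acta2 and Tagln, in the myofibroblast list as well, and bulk RNA does not separate the cell types. The pericyte marker Rgs5 did not pass (0.00, SE 0.24). The members that fell were Des (-1.11, adjusted p = 0.0278) and Myocd (-1.96, adjusted p = 0.0187), which cardiomyocytes also express, and Smtn (-0.59, adjusted p = 0.042), whose call held in 2 of the 12 fits without a library (cell sheet replicate 6 or sham replicate 5 left out). Des was called in 7 of the 12. Without cell sheet replicate 6 the fold change of Myocd was -2.78.

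Of the endothelial genes, 6 of 18 fell and 2 rose (median -0.27), and 11 fell without sham replicate 5. Over all tested genes 29.2% were lower and 28.6% higher with all libraries, so that the share that fell in that fit was near the background. Without sham replicate 5, 33.6% of all tested genes were lower, a smaller share than the 11 of 18 endothelial genes. The count is sensitive to that library, in which the endothelial list had its lowest sham level (5.79 against 6.62 to 6.85). Kdr, the main vascular endothelial growth factor (VEGF) receptor, was at 60.5, 77.5 and 160 CPM in the cell sheet group and 111, 213 and 243 CPM in sham (-1.15, SE 0.27, adjusted p = 0.00358). The largest fall was in Fabp4, of capillary endothelium and fat (-1.83, SE 0.40, adjusted p = 0.00262). The pan-endothelial Pecam1 (-0.25, SE 0.19, adjusted p = 0.278) and Vwf (-0.60, SE 0.26, adjusted p = 0.0628) passed only without sham replicate 5 (adjusted p = 0.015 and 0.00251), and Cdh5 did not pass in either fit (0.17, adjusted p = 0.519). Plvap, the diaphragm protein of fenestrated and growing vessels, rose without overlap, from 8.68 to 28.4 CPM in sham to 37.3 to 124 CPM (2.01, SE 0.38, adjusted p = 0.00108). The venular chemokine scavenger Ackr1 rose by 0.57 (SE 0.21, adjusted p = 0.0361) and was called in 6 of the 12 fits.

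Among 19 angiogenic ligands and receptors, 6 rose and 6 fell, with a median of -0.02, beside 28.6% of all tested genes higher and 29.2% lower. Vegfa, the principal VEGF ligand, was lower, at 120, 215 and 585 CPM against 364, 829 and 894 CPM in sham (-1.53, SE 0.39, adjusted p = 0.00605). The highest cell sheet library was replicate 6 and the lowest sham library replicate 5, as for the sarcomere genes. Vegfb (-1.59, adjusted p = 0.00577) and the vessel-stabilizing Angpt1 (-1.54, adjusted p = 0.00507) fell as well, whereas the placental growth factor Pgf (2.63, adjusted p = 3.52e-05), Vegfd (2.37, adjusted p = 5.52e-05) and the vessel-destabilizing Angpt2 (1.80, SE 0.26, adjusted p = 2.59e-04) rose without overlap. Ndnf, a secreted neurotrophic and angiogenic factor, rose by 2.86 (SE 1.00, adjusted p = 0.028). Its sham level was 8.44 CPM in replicate 5 and at most 0.628 CPM in the others, and the fold change was 5.43 without that library. With it, 6 of the 12 fits called the gene. The apelin gene Apln did not pass (-0.19, SE 0.33).

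**Figure D3:**
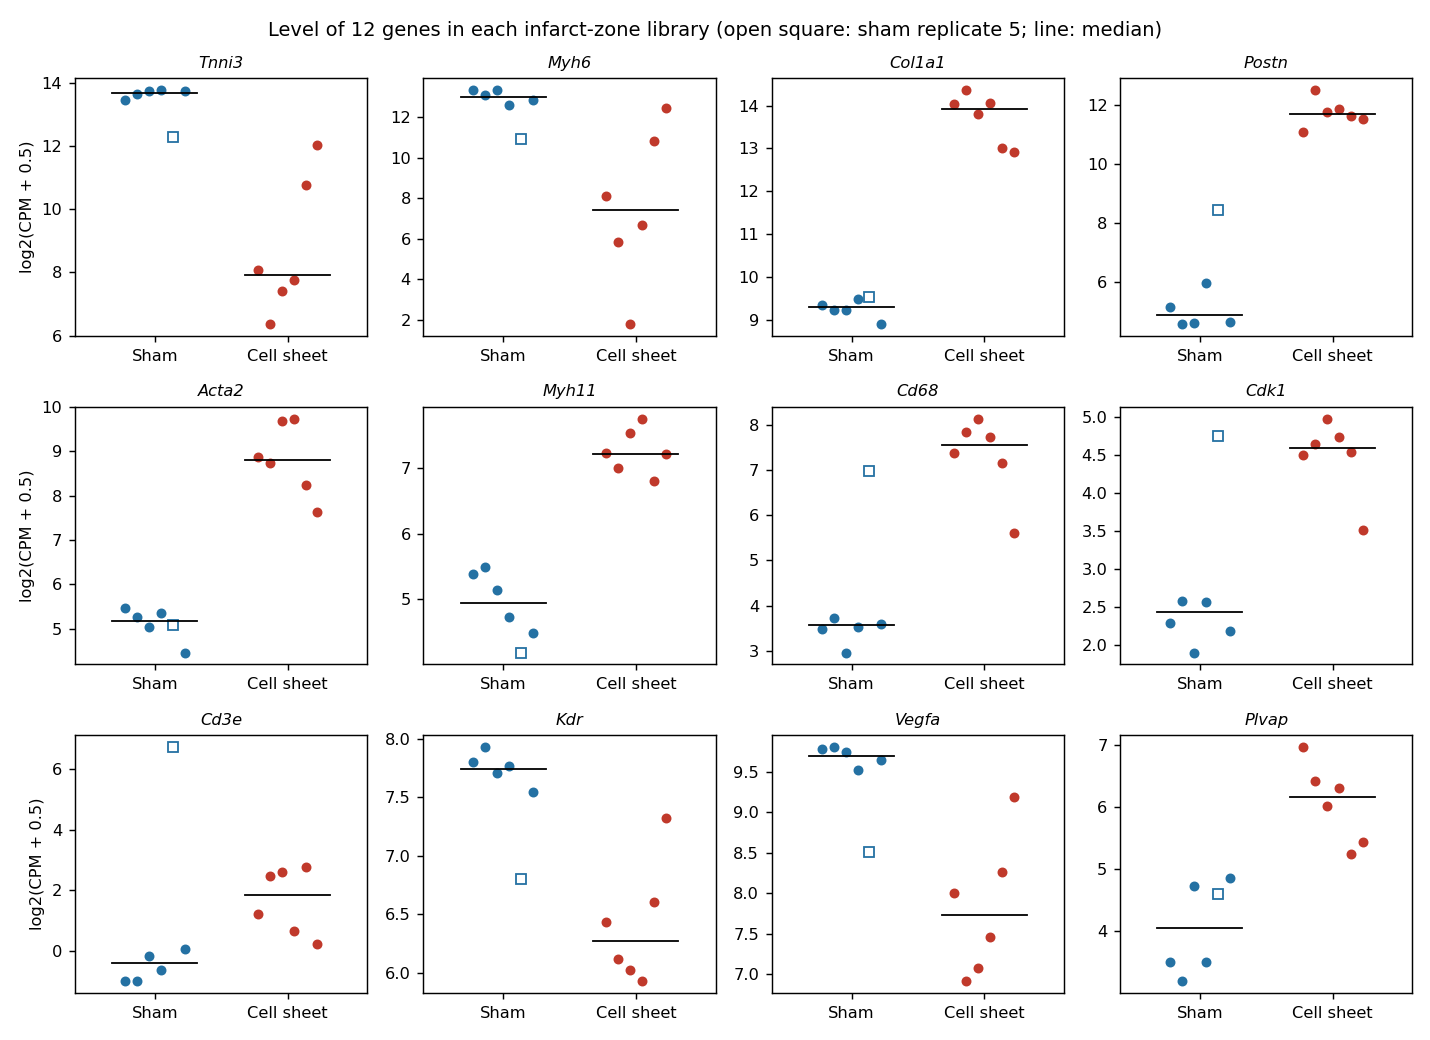
Level of 12 genes as log2(CPM + 0.5) (vertical axes) in each sham (blue) and cell sheet (red) infarct-zone library; an open square marks sham replicate 5 and a line the median of 6 libraries. Col1a1, Postn, Acta2, Myh11 and Plvap did not overlap between groups, Myh6 ranged widely among cell sheet libraries, and Cd3e was far higher in sham replicate 5 than in any other library.

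Phagocyte genes were higher in the cell sheet infarct zone. Of 22 macrophage genes, 13 rose and none fell (median 1.64), and all 22 rose without sham replicate 5 (median 2.48). Cd68, a lysosomal protein of macrophages, was at 48.6, 187 and 280 CPM in the cell sheet group. In sham it was at 7.3 to 12.8 CPM in 5 libraries and at 125 CPM in replicate 5, which overlapped with cell sheet replicate 6. The fold change was 2.68 (SE 0.73, adjusted p = 0.00861), and 4.05 without sham replicate 5. Gpnmb, of lipid-laden and repair macrophages, had the largest rise (5.18, SE 0.84, adjusted p = 4.49e-04), and Trem2 of the same state rose by 3.38 (SE 0.53, adjusted p = 3.83e-04), both without overlap in all 12 libraries. Gpnmb had a fold change of 6.33 without sham replicate 5. The complement gene C1qa, of resident macrophages, passed only without sham replicate 5 (1.01, adjusted p = 0.155 with it and 2.08, adjusted p = 9.01e-05 without it). Cell sheet replicate 6 had the lowest macrophage level of its group (5.96 on the mean log2 scale, against 7.08 to 7.71 in the others).

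Of the 12 neutrophil genes listed, 5 did not pass the filter on low counts, and a gene that passed it only through the cell sheet group had to differ, so that the 7 called of 7 tested are not a result about the list. The calprotectin subunits S100a8 (2.56, SE 0.52, adjusted p = 0.00171) and S100a9 (2.16, SE 0.54, adjusted p = 0.00566) and the receptor Csf3r (3.56, SE 0.71, adjusted p = 0.00155) were higher, at median levels of 7.52, 11.8 and 30.2 CPM in the cell sheet group. The fold change of Csf3r was 4.71 without sham replicate 5, and that of S100a9 1.57 without cell sheet replicate 2. Mmp8, the neutrophil collagenase, had the largest rise of this list at low counts (12 to 91 against 0 to 2 counts). The granule genes Mpo, Elane, Ngp, Camp and Cd177 did not pass the filter.

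The result for T and NK cell genes turned on sham replicate 5. With all libraries, 1 of 14 tested rose and 3 fell (median -1.44), whereas 6 rose and 3 fell without that library (median 0.93). Over all tested genes 28.6% rose and 29.2% fell with all libraries, and 36.4% and 33.6% without sham replicate 5. Cd3e was at 0.663, 3.45 and 6.26 CPM in the cell sheet group. Its fold change was -2.24 (SE 1.59, adjusted p = 0.24) with all libraries and 4.00 (adjusted p = 0.00188) without sham replicate 5. The coreceptor Cd4, which rat macrophages also carry, rose in both fits (1.19 and 1.70), and the regulatory T-cell factor Foxp3 was lower in both (-2.22 and -1.51), at 0.399 to 0.844 CPM against 0.807 to 9.4 CPM. The cytotoxic granule gene Nkg7 passed in neither. Of 12 B and plasma cell genes, 3 were tested and Xbp1 (0.50) and Derl3 (1.00, adjusted p = 0.0446) rose, both of them genes of the secretory pathway that many cells use (Derl3 in 2 of the 12 fits), while Cd79a, Ms4a1 and Igha did not pass the filter.

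Chemokines and their receptors gave 5 rises and 2 falls of 18 with all libraries and 13 rises and 2 falls without sham replicate 5. Over all tested genes 28.6% were higher and 29.2% lower with all libraries, so that the rises in that fit were near the background. Without sham replicate 5 these shares were 36.4% and 33.6%. Without each of the other libraries in turn the list had as few as 4 calls, the lowest count coming from leaving out cell sheet replicate 2 or 3 or sham replicate 2, 3 or 6. Ccl2, which attracts monocytes, was at 30.1 to 102 CPM in the cell sheet group, 10.9 to 20.3 CPM in 5 sham libraries and 198 CPM in sham replicate 5. Its fold change of 0.41 (adjusted p = 0.625) became 1.87 (adjusted p = 3.22e-04) without that library. The fractalkine receptor Cx3cr1 of monocytes rose (1.85, adjusted p = 0.0334, called in 4 of the 12 fits), and its ligand Cx3cl1 fell without overlap (-0.92, SE 0.20, adjusted p = 0.00222). Cx3cr1 had a fold change of 3.26 without sham replicate 5. Cxcl12, the ligand that draws progenitor cells, was at 255, 361 and 440 CPM in the cell sheet group and 242, 303 and 386 CPM in sham (0.24, SE 0.17, adjusted p = 0.245), while its scavenging receptor Ackr3 fell (-0.73, SE 0.27, adjusted p = 0.0371, called in 4 of the 12 fits). The neutrophil chemokine Cxcl2 rose by 3.86 (SE 1.24, adjusted p = 0.019) with a cell sheet range of 0.149 to 32.7 CPM, the highest being replicate 2. Without that library its fold change was 1.54 and the call was lost.

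Of 19 cytokines and cytokine receptors, 13 rose and none fell (median 1.47), and 17 rose without sham replicate 5. Among all tested genes 28.6% were higher with all libraries and 36.4% without sham replicate 5. Il10, an anti-inflammatory cytokine, had the largest rise (4.64, SE 1.00, adjusted p = 0.0024), from 0 to 1.19 CPM in sham to 1.21 to 12.6 CPM. The highest sham value was that of replicate 5, the others being at most 0.0897 CPM, and the fold change was 7.28 without that library. Il6 rose at low levels (0.422 to 3.79 CPM, 3.57, SE 0.99, adjusted p = 0.00938) and had a fold change of 6.17 without sham replicate 5. Il1b passed only without sham replicate 5 (1.94, adjusted p = 0.0935 with it and 3.57, adjusted p = 0.00184 without it), and Tnf passed in neither (-0.85 and -0.07). With all libraries no interferon-stimulated gene was called higher and 2 of 11 fell, no larger a share than the 29.2% of all tested genes that fell. Rsad2 was among them, without overlap (-1.17, SE 0.27, adjusted p = 0.00357), and Isg15 did not pass (-0.73, adjusted p = 0.228). Without sham replicate 5, 1 of the list was higher and 1 lower.

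Proliferation genes were higher in the cell sheet group than in 5 of the 6 sham libraries. Of 22 cell cycle genes, 9 rose with all libraries (median 1.11) and 20 without sham replicate 5 (median 2.04), and none fell in either fit. The background was 28.6% of all tested genes higher with all libraries and 36.4% without sham replicate 5. Cdk1, the mitotic kinase, was at 10.9, 23.6 and 31 CPM in the cell sheet group. In sham it was at 3.23 to 5.49 CPM in 5 libraries and at 26.5 CPM in replicate 5, inside the cell sheet range. The fold change was 1.55 (SE 0.48, adjusted p = 0.0159) with and 2.33 (adjusted p = 3.11e-05) without that library. Ccnb1, cyclin B1, rose by 1.64 (SE 0.60, adjusted p = 0.0345) and was called in 4 of the 12 fits, and the proliferation antigen Mki67 (1.09, adjusted p = 0.097) and the topoisomerase Top2a (1.16, adjusted p = 0.0781) passed only without sham replicate 5. Without cell sheet replicate 3 none of the 22 was called with sham replicate 5 in the fit. The fold change of Ccnb1 was 2.78 without sham replicate 5. Pcna and Tyms did not pass in either fit. Cell sheet replicate 6 had the lowest level of its group (3.60 against 4.49 to 4.87 on the mean log2 scale).

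Mitotic genes share promoter elements that are known to time their transcription in G2, the CCAAT box bound by NF-Y and the cell cycle homology region, searched here as TTTGAA. The promoters of Cdk1 and Ccnb1 are shown because these are the cell cycle kinase and cyclin with called rises. They were taken from RefSeq (build GRCr8) as the 250 bases before the annotated start, 5′ to 3′ on the gene's strand, with matches on either strand in capitals.
Cdk1 (chr20:19265043-19265292, plus strand): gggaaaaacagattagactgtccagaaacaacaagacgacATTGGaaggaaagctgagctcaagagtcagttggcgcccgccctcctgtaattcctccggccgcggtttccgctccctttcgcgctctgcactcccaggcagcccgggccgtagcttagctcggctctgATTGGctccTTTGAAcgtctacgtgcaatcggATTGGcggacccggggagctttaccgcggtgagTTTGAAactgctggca
Ccnb1 (chr2:33655226-33655475, minus strand): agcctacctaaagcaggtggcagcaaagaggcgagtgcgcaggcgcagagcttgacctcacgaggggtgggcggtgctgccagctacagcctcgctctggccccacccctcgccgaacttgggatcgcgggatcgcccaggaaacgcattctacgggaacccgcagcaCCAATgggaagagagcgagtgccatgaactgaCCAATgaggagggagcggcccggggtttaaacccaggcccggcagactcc
In Cdk1 the capitals mark 3 CCAAT boxes, here on the opposite strand as ATTGG, and 2 copies of TTTGAA. In Ccnb1 they mark 2 CCAAT boxes. Of the 22 cell cycle genes, 18 matched a promoter in the table. A CCAAT box was found in 12 of them (66.7%, against 34.3% of all 27457 promoters), TTTGAA in 5 (27.8% against 16%) and both in 4 (22.2% against 5.76%). The strict CArG box, the element of smooth muscle promoters, was in none of the 9 mural and smooth muscle promoters matched and in 1.50% of all promoters. It was searched as CC, a run of A or T, and GG, with no mismatch allowed. The Acta2 window holds CCCTATATGG and CCTTGTTTGG, each off by a single base, which this search does not count. The count therefore does not show that these promoters lack the element. These are matches of letters in a fixed window and not measured binding sites.

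Markers of tissues around the heart were high in some cell sheet libraries and not in others. Of 10 skeletal muscle genes, 5 passed the filter on low counts and 4 of these rose, beside 28.6% of all tested genes. Members low in sham could pass the filter through the cell sheet group alone, so this count is not a result about the list. Skeletal muscle genes were high in cell sheet replicates 2 and 6, in which the mean log2 level of the list was 3.45 and 4.89. It was 0.40 to 0.52 in the other 4 and at most 0.73 in sham. Mylpf, the fast-muscle light chain, was at 82.9 and 119 CPM in these libraries and at 1.09 to 3.33 CPM in the other 4. Its rise (3.38, adjusted p = 0.0329) was not called without both libraries, where the fold change was -0.60 (adjusted p = 0.422), and 1 gene of the list was then called. Without replicate 6 alone 1 gene was called. The count of called genes over the whole transcriptome was 9155 without both, against 9078 with them. Lung genes were high in cell sheet replicate 6 alone (2.19 against -0.16 to 0.18 in the other cell sheet libraries), with Sftpc, surfactant protein C, at 31.9 CPM there. Only 2 of the 10 lung genes passed the filter on low counts, and Sftpc did not. Of the 2 tested, none was called higher with all libraries and 1 without sham replicate 5. Adipocyte genes passed the filter in 3 of 10 cases. Adipoq, adiponectin, was at 18.9, 1.65, 13, 10.9, 0 and 0 CPM in cell sheet replicates 1 to 6 and at most 0.0785 CPM in sham. Cfd, adipsin, rose (2.60, SE 0.38, adjusted p = 2.74e-04) and Lipe, hormone-sensitive lipase of fat and muscle, fell (-0.83, SE 0.29, adjusted p = 0.0257, called in 8 of the 12 fits). The part of these tissues in the other results was not tested beyond the fits without replicates 2 and 6.

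Epicardial and mesothelial genes gave 5 rises and 1 fall of 12. Over all tested genes 28.6% were higher and 29.2% lower, which is the background for each list of this paragraph. Msln, mesothelin, had its highest level in cell sheet replicate 1 and rose (2.06, SE 0.60, adjusted p = 0.0115), as did the retinoic acid enzyme Aldh1a2 (1.60, SE 0.31, adjusted p = 0.00141), while the epicardial factor Wt1 (0.41, adjusted p = 0.295) and Upk3b (0.47, adjusted p = 0.644) did not pass and Gpm6a fell (-1.70, adjusted p = 0.0151). Of 7 erythroid genes 1 was called, the anion exchanger Slc4a1 (-1.42, adjusted p = 0.0241), and not without cell sheet replicate 1 or sham replicate 3, and the globin Hbb did not pass (-0.52, adjusted p = 0.382). Of 7 atrial genes 3 rose, Nr2f2, Dkk3 and Gja5, which non-atrial cells also express, and the atrial light chains Myl7 and Myl4 did not pass.

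The 10 largest falls without overlap were those of Cox8b, Gzmc and 8 loci with transfer RNA symbols or no gene name. They included 3 symbols of transfer RNAs, Trnr (-3.53, SE 0.32), Trnt (-4.33, SE 0.49) and Trnd (-3.48, SE 0.60), of which Trnr had the highest level, 93.5 to 240 CPM in sham and 10.9 to 29.1 CPM in the cell sheet group. Gzmc, a granzyme of rat lymphoid cells, fell from 10.9 to 33.1 CPM in sham to 0.378 to 3.44 CPM (-3.75, SE 0.55, adjusted p = 2.70e-04), and its fold change was -3.54 without sham replicate 5. The other 5 were loci without a gene name, LOC102547142, LOC120094178, LOC102555433, LOC100363502 and LOC120094180, with fold changes between -4.49 and -3.61.

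To place the infarct-zone effect in the heart, the same groups were compared in the other zones of the same animals. In the border zone 6955 of 15960 tested genes, 43.6%, differed, 20.4% being higher and 23.2% lower. In the remote zone 1 of 15157 differed, 0.00660%, with 1520 genes at an unadjusted p under 0.05. Both counts include sham replicate 5 and are not given without it. The remote-zone gene was Myh11, which was higher in the cell sheet group there as well (1.65, adjusted p = 0.0126) and in the border zone (2.01, adjusted p = 8.17e-05). The difference between the infarct-zone and remote-zone effects was tested by an interaction term in a fit that kept each animal as a block, and 8494 of 18046 genes, 47.1%, passed, 4009 (22.2%) upward and 4485 (24.9%) downward. With plain library sizes the split was 5841 upward and 3293 downward. Without the animal block 5256 genes passed.

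The list medians were largest in the infarct zone and smallest in the remote zone for the myocyte and matrix lists. For the sarcomere the medians went from -0.19 in remote to -1.44 in border and -2.37 in infarct pieces, and 18 of 20 genes had a lower infarct than remote effect in the interaction test. For the collagens they went from 1.37 over 3.03 to 3.13 in the same order, and 17 of 18 passed upward. For the macrophage genes 20 of 22 passed upward. Sham replicate 5 is in these fits through its own zones, and the interaction count without that animal was 7935. The border and remote list medians and the interaction counts by list are given only with it. The T and NK cell median was -2.22 in the border and -1.68 in the remote zone, beside -1.44 in the infarct zone. How far that animal shaped the border and remote results was not tested. The 5 genes with the smallest adjusted p in the interaction were Pcbd2, a dehydratase (-1.55, SE 0.09), Hikeshi, a nuclear import carrier (-1.16, SE 0.07), the mitochondrial ribosomal proteins Mrpl54 (-1.90, SE 0.12) and Mrps16 (-1.82, SE 0.12) and the proteasome subunit Psmb6 (-1.59, SE 0.11). Each was lower in the infarct zone and none passed the test in the remote zone. Hikeshi, for example, was at 24.9, 31.3 and 41.1 CPM in the cell sheet infarct zone and 67.7, 69.4 and 73 CPM in sham, with fold changes of -1.10 in the infarct zone and 0.03 in the remote zone. Between the infarct and border zones 1 of 18560 genes, 0.00539%, passed, with 1812 at an unadjusted p under 0.05. It was Lipe, whose effect was -0.83 in the infarct and 0.19 in the border piece (difference -1.01, adjusted p = 0.00521).

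**Figure D4:**
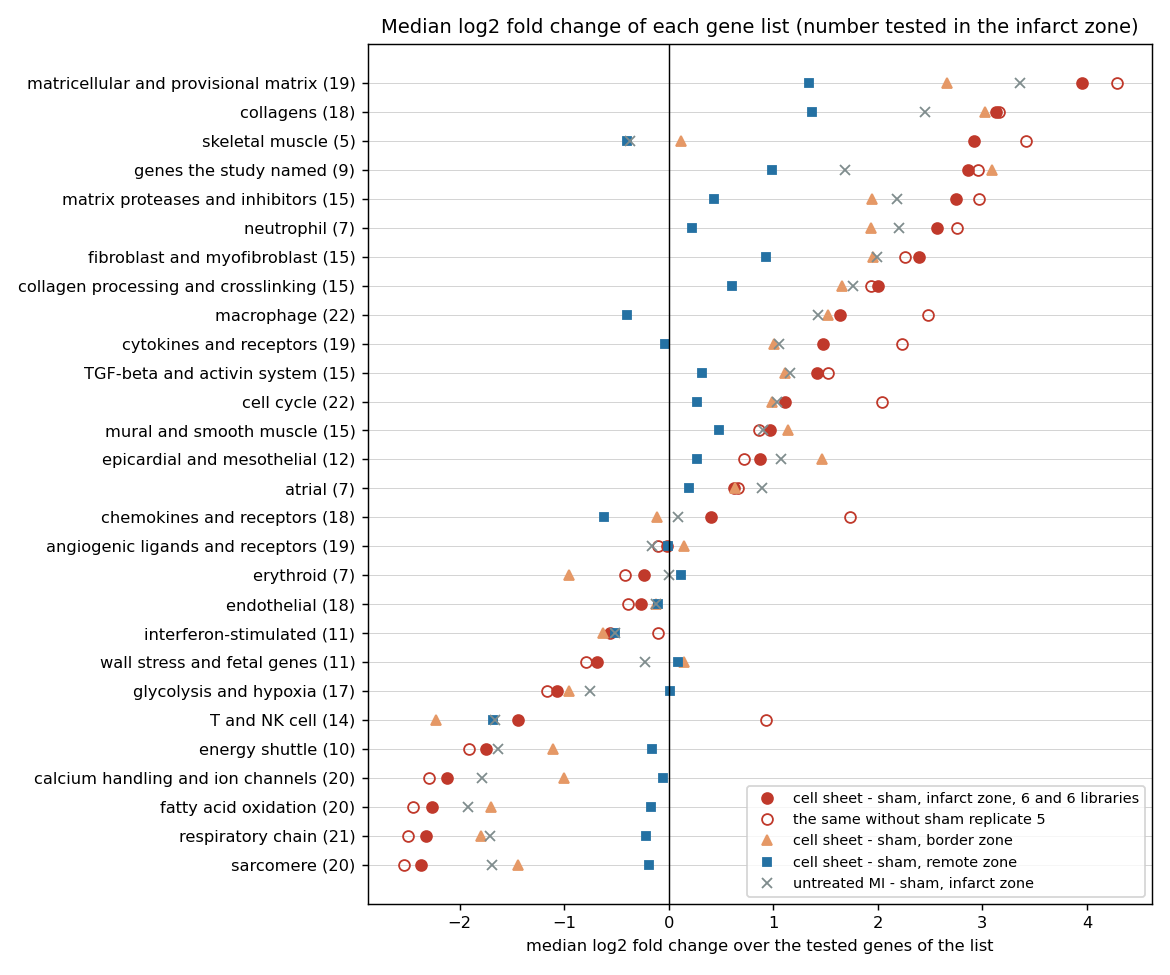
Median log2 fold change over the tested genes of each list (horizontal axis; number tested in parentheses), for cell sheet minus sham in the infarct zone with (filled red circles) and without (open circles) sham replicate 5, in the border (triangles) and remote zones (squares), and for untreated MI minus sham in the infarct zone (crosses). Collagen and matricellular medians were positive and sarcomere and mitochondrial medians negative in the infarct and border zones, and the T and NK cell median changed sign without sham replicate 5.

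Untreated MI hearts differed from sham in 7866 of 15758 tested infarct-zone genes, 49.9%, with 22.7% higher and 27.2% lower, and in 64.8% (34.1% higher, 30.7% lower) without sham replicate 5. This comparison shares the 6 sham libraries with that of the cell sheet group, so the values are given side by side only. The sarcomere median was -2.37 with the cell sheet and -1.69 without it, the respiratory chain median -2.33 and -1.71, the collagen median 3.13 and 2.45, and the macrophage median 1.64 and 1.43. Single genes gave 4.50 and 3.70 for Col1a1, -3.42 and -2.32 for Tnni3, 2.33 and 1.50 for Myh11 and -1.53 and -1.22 for Vegfa. The direct test of cell sheet against untreated MI libraries found 0 of 16196 genes at an adjusted p under 0.05 (lowest adjusted p = 0.472, 1341 genes at an unadjusted p under 0.05), and 59 genes with DESeq2. The differences had wide errors: 0.78 (SE 0.36) for Col1a1, -1.10 (SE 1.00) for Tnni3, 0.83 (SE 0.30) for Myh11 and -0.31 (SE 0.41) for Vegfa. A difference between treated and untreated hearts was therefore not detectable gene by gene with this edgeR test and 6 hearts in each group, whereas DESeq2 called 44 genes higher and 15 lower in treated hearts. Neither test shows that the hearts were alike.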

How the data were processed

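Poly(A) RNA of 54 heart pieces was sequenced by the authors, who aligned reads with STAR to the rat build mRatBN7.2 and analysed merged counts with DESeq2. The deposited tables hold raw counts per gene; the program that counted reads and its strand setting are not given in the sources used here. The 5 summary lines per table were left out; they took 17.0% to 42.8% of the lines' sum in the 12 libraries. Groups came from the labels. Genes were filtered with filterByExpr, scaled by TMM and tested with edgeR 4.0.16 (quasi-likelihood F-test, Benjamini-Hochberg adjustment, threshold 0.05) under R 4.3.3. Zone differences were tested as interactions with the animal as a block. CPM for plots had 0.5 added before log2. Of 40319 gene symbols, 28832 were found in the RefSeq table. Promoter sequences came from RefSeq (GRCr8) and were used without coordinates of the authors' build.

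Members of lists and the gene lists were chosen with earlier results of these data known. Named genes were, for each list, its first 3 symbols, its largest called rise and fall and called members against its main direction; beyond the lists, the 10 largest rises and falls among called genes without overlap whose mean log2 CPM reached 1, and the 5 smallest adjusted p of the infarct against remote interaction. Single called genes, and members named because they did not pass, were chosen after their values were seen. One gene that this rule names is not reported here. Alternatives were DESeq2 1.42.0, limma 3.58.1 voom weights, library-size scaling, other filters, a test against a 2-fold change, all 9 groups in one fit, the replicate number as a block and each library left out. Fits without cell sheet replicates 2 and 6, and without sham replicate 5 with library-size scaling, were added after seeing the data. The tests were also run on simulated counts with few changed genes, as many up as down, a single dispersion and no outlying library. That setting differs from these data, so it does not check the scaling or the effect of sham replicate 5.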

Additional observations from a re-analysis of the deposited data

Results flagged for a closer look

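A library was marked where its distance to the nearest other library of its group exceeded a fixed share of the group's range, which chance alone does for about 1 in 20 groups; here 19 of 62 pairs of a list and a group were marked, 16 of them for sham replicate 5 and 3 for cell sheet replicate 6. Values are mean log2 levels of a list. Sham replicate 5 lay below the other sham libraries for the sarcomere (9.68), calcium handling (6.53), fatty acid oxidation (6.96), respiratory chain (9.16), energy shuttle (8.88), endothelial (5.79) and angiogenic (4.64) lists. It lay above them for matricellular (6.32), protease (4.15), macrophage (7.03), T and NK cell (5.08), B and plasma cell (1.80), chemokine (5.40), cytokine (4.31), cell cycle (5.17) and lung (0.08) genes. Cell sheet replicate 6 lay below its group for macrophage (5.96) and cell cycle (3.60) genes and above it for lung genes (2.19).

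The effect of cell sheet against sham differed between the infarct and remote zones, by the interaction test, for Pcbd2 (-1.55), Hikeshi (-1.16), Mrpl54 (-1.90), Mrps16 (-1.82) and Psmb6 (-1.59), and between the infarct and border zones for Lipe (-1.01).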

How the results depend on the processing

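For cell sheet against sham, leaving out each library in turn gave 7975 (without cell sheet replicate 4) to 11159 (without sham replicate 5) called genes. DESeq2 (10548), voom weights (11988), library sizes (9415), no filter (9245), at least 10 counts in every library (8008) and all 9 groups in one fit (10458) stayed within 1.5 times the count of 9078. A test against a 2-fold change called 1249, 833 higher and 416 lower. With DESeq2, 59 genes differed between cell sheet and untreated MI. For the infarct against remote interaction, leaving out sham replicate 5 gave 7935 and cell sheet replicate 1 gave 9265, and the fit with no animal block gave 5256. For infarct against border DESeq2 gave 63, at least 10 counts in every library 4 and the fit with no animal block 0. Cd3e changed direction with voom weights (3.99) and without sham replicate 5 (4.00; its range over single libraries left out began at -2.59), and Mylpf without cell sheet replicates 2 and 6 (-0.60, added after seeing the data); the cause was not tested. Of 145 named genes tested, 119 were called and 94 of these were called in each fit without a library.

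With the replicate block, 8756 genes were called for cell sheet against sham, 7751 for untreated MI against sham and 0 for cell sheet against untreated MI. The numbers do not pair animals across groups: the deviations of same-numbered libraries correlated at -0.03, -0.35, -0.48, -0.06, -0.24 and 0.24. Depth limits the size of the rises from few sham counts, such as those of Adamts16 and Lrrc15.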
